A study of Mus musculus with 18 samples.

Results

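The Hox cluster genes of the mouse were examined in m6A-seq data of the pregnant uterus. Members were the rows of the 4 deposited tables of differential m6A peaks whose annotation or assigned gene was a Hoxa, Hoxb, Hoxc or Hoxd gene. This gave 37 of 40929 rows, and they named 17 of the 39 Hox genes in the annotation. Here a row is 1 stretch of the genome in 1 comparison, so a position listed in both comparisons gave 2 rows.

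m6A-seq sequences RNA fragments pulled down with an antibody to N6-methyladenosine (IP) next to unselected fragments (input), here of about 100 nt. The mice were 8-week-old ICR mice labelled wild type. All groups were injected from day 1 to day 4 of pregnancy, and the uterus was taken on day 5. The Veh group received vehicle. The LPS group received lipopolysaccharide, a bacterial cell wall component used to mimic infection, at 0.5 mg/kg on days 3 and 4. The Mel+LPS group received the same LPS and melatonin at 10 mg/kg on days 1 to 4. Each group had 3 IP and 3 input libraries, 18 in all. The design asks which m6A peaks differ after LPS (LPS vs Veh), and which differ when melatonin is given with LPS (Mel+LPS vs LPS). The 4 tables are called LPS-up and LPS-down for the first comparison, and Mel-up and Mel-down for the second. The study also had a group given melatonin without LPS, but that group was not among the sequenced libraries. Both comparisons hold the same LPS libraries.

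Each row carried 1 score, the log10 likelihood ratio of the difference, which grows with the evidence for a difference and is not a fold change. The deposited tables gave no value per library, so the depth behind a peak was unknown, no replicate error could be computed and no test was made. Counts and scores are therefore set beside the same figures over all genes or all rows. The tables also gave no expression level, so uterine markers could not be checked, and more methylation, more RNA per cell and more cells of a type could not be told apart. LPS-down was used on chromosomes 1 to 9, where it was complete. It therefore covered the Hoxa cluster on chromosome 6 and the Hoxd cluster on chromosome 2, but not Hoxb on chromosome 11 or Hoxc on chromosome 15.

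Hox genes encode homeodomain transcription factors that give cells their position along the body axis. They sit side by side in 4 clusters, and genes of the same number in different clusters are paralogs, with low numbers acting towards the head and high numbers towards the tail. In the female tract the 5′ genes of the Hoxa cluster pattern oviduct, uterus, cervix and vagina. Hoxa10 and Hoxa11 stay active in the adult uterus, where implantation depends on them. HOX proteins bind DNA together with PBX and MEIS cofactors, and the clusters are kept on or off by Trithorax and Polycomb complexes.

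To show the RNA under the peaks, 1 stretch of 27 bases was taken at each of 6 positions that carry the results. In each stretch the DRACH match nearest to the centre of the LPS-up peak is in capitals. DRACH is the consensus around methylated adenosines, and was searched on the strand of the transcript as A, G or T, then A or G, then AC, then A, C or T. The stretches were read 5′ to 3′ from GENCODE transcripts and written as DNA, with positions on GRCm38. A match is a description of the sequence and not a mapped site.
Hoxc8, coding sequence, chr15:102992636-102992662, plus strand, the highest Hox scores: taatccttattTGACCagaaagcgccg
Hoxa4, 3′ UTR, chr6:52189914-52189940, minus strand: ctttactgagtAGACTttgtggacctc
Hoxa5, 5′ UTR, chr6:52204447-52204473, minus strand: tacgtaggaggGAACCgagtacatgtc
Hoxd9, start of the coding sequence, chr2:74698080-74698106, plus strand: aactactacgtGGACTcgctcataggc
Hoxc6, coding sequence, chr15:103009923-103009949, plus strand: tgagcagggcaGGACTgcgccccagga
Hoxb8, end of the coding sequence, in a peak assigned to Hoxb7, chr11:96284416-96284442, plus strand: gcgggcaccagAGACCgccgagcaggg

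The Hox rows lay almost entirely on one side of each comparison. Of the 37 rows, 17 were in LPS-up, 18 were in Mel-down, 2 were in Mel-up, and 0 were in LPS-down. On chromosomes 1 to 9, where both directions of LPS vs Veh were complete, all 10 Hox rows were up, whereas 49.8% of all 12479 rows there were up. In Mel+LPS vs LPS, 90.0% of the 20 Hox rows were down, whereas 40.7% of all 22647 rows were down. Because the LPS libraries enter both comparisons with opposite sign, the Mel+LPS vs LPS direction is not independent of the LPS vs Veh direction. Rows of 1 gene also share a transcript, so rows are not replicates.

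Counted by gene, 12 of 39 Hox genes (30.8%) had a peak in LPS-up, beside 26.8% of 21887 protein-coding genes. The share was thus near the background. Among the 20 Hoxa and Hoxd genes, 0 had a peak in LPS-down, beside 28.8% of the 11966 protein-coding genes on chromosomes 1 to 9. In Mel+LPS vs LPS, 1 of 39 (2.56%) had a peak up, beside 31.6%, and 13 of 39 (33.3%) had a peak down, beside 21.8%. By this count the distance from the background was larger in LPS-down and Mel-up, where Hox genes were nearly missing, than in LPS-up and Mel-down. Hox genes are short, with a median length of 3737 bases beside 17169 bases for protein-coding genes, and a longer gene can take more peaks by assignment. The part of gene length in these shares was not tested.

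**Figure D1:**
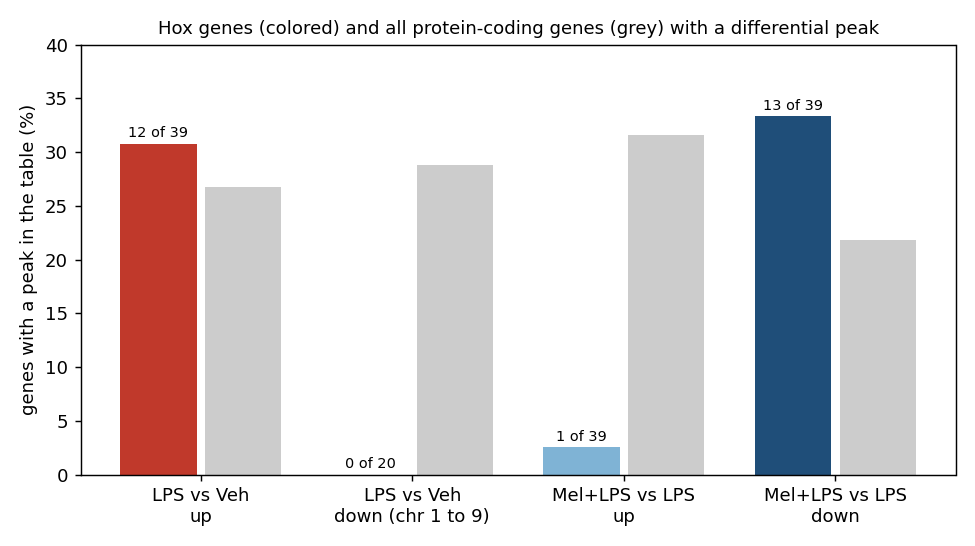
Share of genes (%) with at least 1 peak in each of the 4 tables, for Hox genes (colored bars, with counts above) and for all protein-coding genes (grey bars). Hox genes reach 30.8% in LPS-up and 33.3% in Mel-down, and 0 and 2.56% in LPS-down and Mel-up, where the grey bars stand at 28.8% and 31.6%.

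The Hox scores were modest. In LPS-up they ran from 1.26 to 6.19 with a median of 2.37, below the median of 2.88 over all 12023 rows. In Mel-down they ran from 1.15 to 6.29 with a median of 1.65, beside 3.09 over all 9211 rows. A score of at least 3 was reached by 6 of 17 Hox rows in LPS-up and by 1 of 18 Hox rows in Mel-down, whereas 48.7% and 50.8% of all rows in those lists reached it. By gene, 5 of 39 Hox genes (12.8%) reached a score of 3 in LPS-up, beside 14.7% of protein-coding genes. For Mel-down this was 1 of 39 (2.56%), beside 12.0%. LPS-down held 0 of 20, beside 14.4%, and Mel-up held 0 of 39, beside 13.5%. The Hox genes named in Mel-down were therefore carried by low-scoring peaks, with Hoxc8 as the exception. A Mel-down peak of 4.45 in the 3′ UTR of Hoxa7 is not counted here, because it was assigned to the gene Mira.

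**Figure D2:**
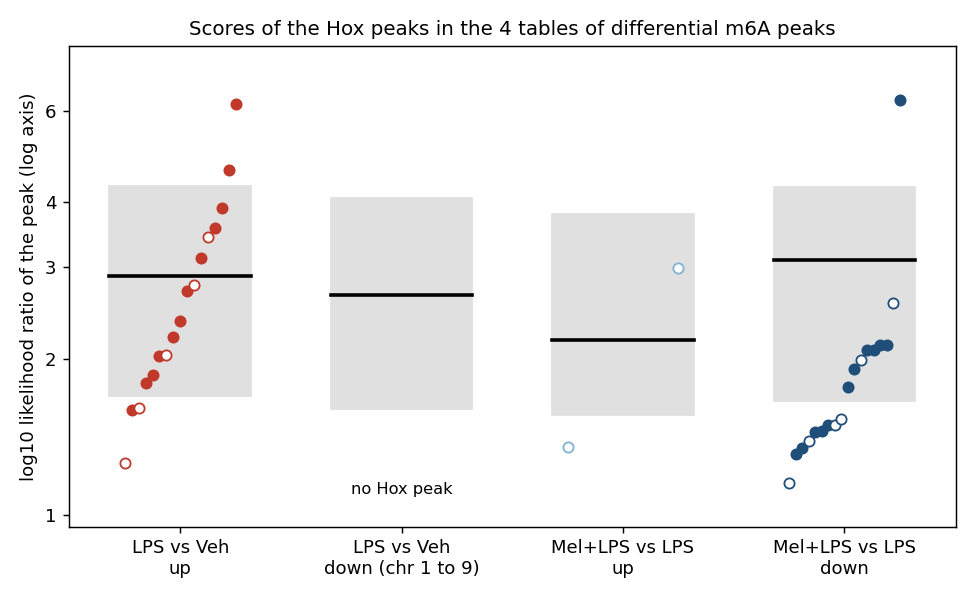
Score of each Hox row (log10 likelihood ratio, log axis) in the 4 tables. Filled points are peaks whose centre lies inside the assigned gene and open points are the others, ordered by score within a table, with the median (line) and interquartile range (grey box) of all rows of the table. Most Hox points of Mel-down lie below the line at 3.09.

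Hoxc8, a paralog group 8 gene of thoracic identity, had the highest Hox score in both comparisons. Its peak occupied the same interval in both, chr15:102992581-102992700, and its centre lay in the coding sequence 212 bases before the last coding base. The score was 6.19 in LPS-up and 6.29 in Mel-down. Both scores were shared by many other peaks: 242 rows of the first table carried exactly the same value as Hoxc8, and so did 194 rows of the second. All other Hox scores occurred once in their table, except a Hoxd9 score of 2.12 carried by 2 rows of Mel-down. The Hoxc8 score thus ranked in the top 13.6% and top 12.1% of rows, but in a block of ties. What sets such a repeated value was not tested.

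In the Hoxd cluster, Hoxd9, which is active in limb and posterior trunk, had the most rows of any Hox gene. It had 4 rows in LPS-up and 3 in Mel-down, spread from its start to its end. A peak over its transcription start, annotated as promoter, scored 3.43 in LPS-up and 2.56 in Mel-down, and its centre fell upstream of the gene. The next peak, centred 69 bases after the start of the coding sequence in LPS-up, scored 3.13 and 2.12. A peak near the stop codon, centred 81 bases before the last coding base in LPS-up, scored 1.59 and 1.77. The score was thus higher in LPS-up at the start of the gene and slightly higher in Mel-down at its end. A last peak in the 3′ UTR scored 2.02 in LPS-up and was not listed in Mel-down.

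Hoxd10, its neighbour, which patterns the lumbar spinal cord and hindlimb, had 1 peak in the coding sequence in each comparison, with scores of 2.20 in LPS-up and 1.31 in Mel-down. The other Hoxd genes were each named in a single table. Hoxd8 scored 1.26 in LPS-up, and that peak lay upstream of Hoxd8 on an exon of the antisense transcript Hoxd3os1. Hoxd11, a gene of the forearm skeleton, scored 1.45 in an intron, and Hoxd4, a gene of the neck, scored 1.15 in its coding sequence, both in Mel-down. Hoxd3 was the only Hox gene named in Mel-up, with an intronic peak of 2.99 and a coding peak of 1.35. The coding exons of Hoxd3 and Hoxd4 are shared with the readthrough gene Gm28230 in GENCODE, so these reads could belong to either.

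In the Hoxa cluster, Hoxa4 and Hoxa5, which pattern neck and upper thorax and lung, were listed in both comparisons. The Hoxa4 peak in the 3′ UTR, centred 405 bases past the last coding base in LPS-up, scored 4.61 in LPS-up and 2.12 in Mel-down. In the second comparison the listed interval was shorter, 110 bases, all inside the first. The centre of that shorter interval also lay on an exon of the antisense gene Gm29430. The Hoxa5 peak in the 5′ UTR scored 2.70 in LPS-up and 2.08 in Mel-down. A further Hoxa5 peak upstream of the gene scored 2.77 and 1.53 and had its centre on no exon in GENCODE. Hoxa9, a posterior gene, had a coding peak of 2.37 in LPS-up and a separate 3′ UTR peak of 2.08 in Mel-down, so its rows do not describe the same place.

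Hoxa10 and Hoxa11 are the genes of the family best known for implantation. Hoxa10 was named in none of the 4 tables, and no row lay on a Hoxa10 exon. Hoxa11 was named in 2 rows, both in Mel-down, with low scores of 1.39 and 1.49. Neither had its centre in Hoxa11. The first, chr6:52248711-52248827, was 2901 bases upstream of the assigned start on no exon. The second, chr6:52249691-52249853, was 3881 bases upstream on an exon of Hoxa11os, the antisense transcript of the locus. A gene that is not listed may have had no peak, an unchanged peak or too few reads, and these could not be told apart.

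In the Hoxb cluster, rows named genes of the trunk (Hoxb6, Hoxb7 and Hoxb8) and Hoxb3, a gene of the hindbrain. Hoxb8 had a peak centred 113 bases into its coding sequence in LPS-up. It scored 1.79 in LPS-up and 1.49 in Mel-down. The peak called a Hoxb7 promoter scored 1.61 in LPS-up and 1.99 in Mel-down, but its centre lay in the coding sequence of Hoxb8, 40 bases before the last coding base in LPS-up and 3 bases before it in Mel-down. This peak therefore lay on Hoxb8 and not on the gene it was assigned to. Hoxb7 itself held a peak at the end of its own coding sequence, with a score of 1.91 in Mel-down. Hoxb6 scored 3.56 in LPS-up, in a stretch that the deposited annotation gives as an exon of the antisense transcript Hoxb5os and that lies on no GENCODE exon. Hoxb3 scored 1.34 in Mel-down, in its 3′ UTR, where the antisense gene Hoxb3os also has an exon.

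In the Hoxc cluster beside Hoxc8, Hoxc6, a thoracic gene, had 2 peaks in LPS-up. The one in the coding sequence scored 3.91, and overlapped a peak of 1.45 in Mel-down. The one in the 3′ UTR scored 1.86 and was not listed in Mel-down. Hoxc4, a gene of the neck, scored 2.03 in LPS-up, over its 5′ UTR. No Hoxc gene was named in Mel-up.

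**Figure D3:**
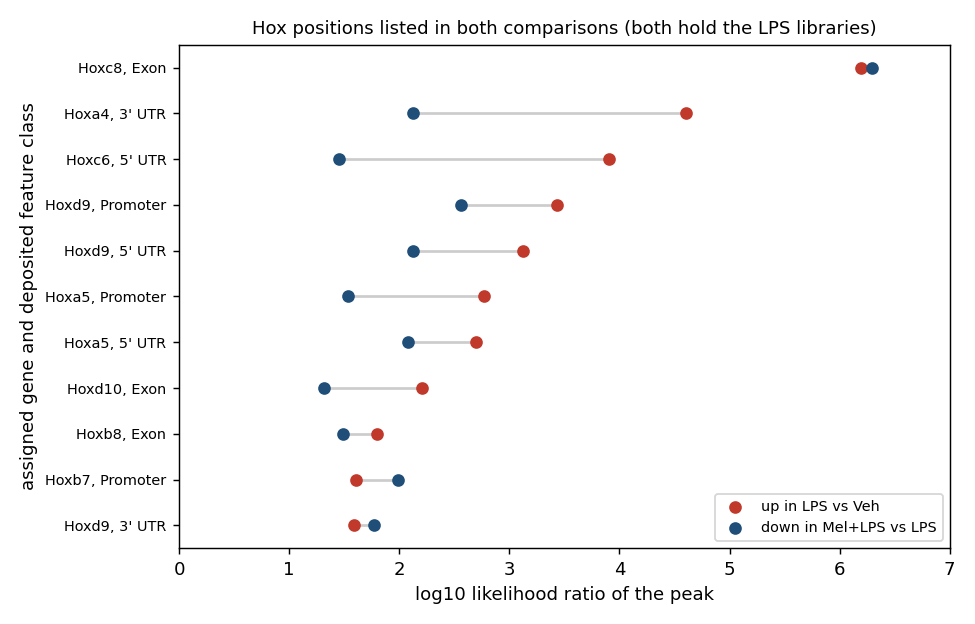
Scores (log10 likelihood ratio) at Hox positions listed in LPS-up (red) and also in Mel-down (blue), labelled by assigned gene and deposited feature class and ordered by the LPS-up score. Hoxa4 and Hoxc6 lie far apart (4.61 and 2.12, 3.91 and 1.45), and Hoxc8 lies close together (6.19 and 6.29). Both comparisons hold the LPS libraries, and the scores are not effect sizes.

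The rows named genes of paralog groups 3 to 11, and no gene of groups 1, 2, 12 or 13. In all, 22 Hox genes were not named, and for 19 of these no row had its centre on an exon of the gene. For Hoxb and Hoxc genes these counts leave out LPS-down, which was not used on their chromosomes. By cluster, LPS-up held 4 Hoxa, 3 Hoxb, 4 Hoxc and 6 Hoxd rows, and Mel-down held 6, 4, 2 and 6.

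**Figure D4:**
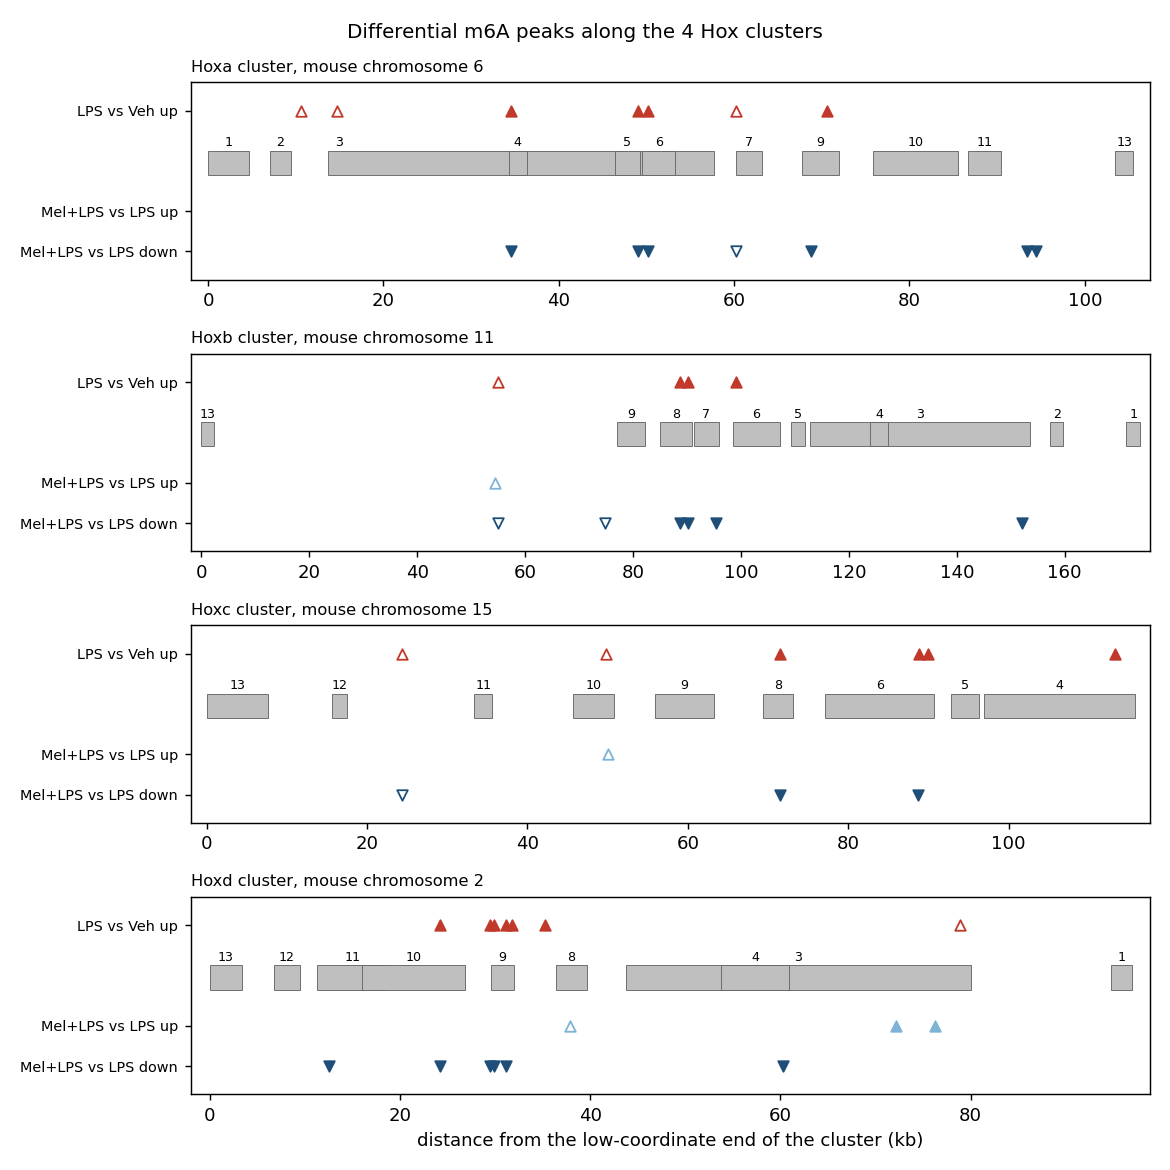
Peak centres along the 4 clusters, as distance in kb from the end of the cluster with the lower coordinate. Grey boxes are the Hox genes with their numbers, filled triangles are rows that name a Hox gene and open triangles are other rows of the clusters, and triangles point up or down with the direction of the difference. The Hoxd9 region at about 30 kb of the Hoxd cluster holds the densest group, and no filled triangle belongs to a gene numbered 1, 2, 12 or 13.

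The deposited annotation gives each peak the gene with the nearest start, and in the dense Hox clusters this is not always the gene under the peak. The centre lay inside the assigned gene in 24 of 37 Hox rows (64.9%), beside 47.4% of all rows. Of the other 13, 3 touched the gene. The rows with the centre inside were those of Hoxa4, Hoxa9, Hoxb3, Hoxb6, Hoxb8, Hoxc6, Hoxc8, Hoxd10 and Hoxd11, both 5′ UTR rows of Hoxa5, the Hoxb7 row annotated as 3′ UTR, and all Hoxd9 rows except the pair annotated as promoter. The rows with the centre outside were both Hoxa11 rows, the promoter rows of Hoxa5, Hoxb7, Hoxc4, Hoxd8 and Hoxd9, and the rows of Hoxd3 and Hoxd4, which were assigned to Gm14424 and Mir10b although their annotation named the Hox gene. Counting only genes that held the centre, 9 of 39 Hox genes (23.1%) were in LPS-up, beside 14.2%. For Mel-down this was 11 of 39 (28.2%), beside 10.7%. LPS-down held 0 of 20, beside 16.3%, and Mel-up held 0 of 39, beside 18.9%.

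Against GENCODE exons, 27 of 37 Hox rows lay on an exon of a Hox gene, 2 lay on noncoding exons and 8 lay on none. The 27 comprised 18 in coding sequence, 6 in 3′ UTRs and 3 in 5′ UTRs. Within 300 bases of the start codon lay 6 rows in coding sequence and 2 in 5′ UTRs, and 11 rows lay within 300 bases of the stop codon on either side. By this count, 13 of 39 Hox genes (33.3%) held a peak in LPS-up, beside 15.8% of protein-coding genes, and 12 (30.8%) held a peak in Mel-down, beside 12.0%. Mel-up covered 3 (7.69%), beside 19.5%, and LPS-down covered 0 of 20, beside 16.0%. The distance of Hox genes from the background thus depended on how a gene was counted. With the exon count it was wider than by assignment in LPS-up and Mel-down, and narrower in LPS-down and Mel-up.

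The deposited classes differed from the background too. Promoter was given to 9 Hox rows (24.3%, beside 7.54% of all rows) and 5′ UTR to 6 (16.2%, beside 4.13%). Intron was given to 2 (5.41%, beside 17.2%), Exon to 11 (29.7%, beside 39.5%) and 3′ UTR to 9 (24.3%, beside 20.6%). Distal intergenic was given to 0 Hox rows, beside 10.8%. The 3′ UTR share was 37.5% among Hox rows with the centre inside the assigned gene and 14.3% among those with a score of at least 3, and the matching shares of all rows were not computed. The class refers to the deposited gene models, and the rows called 5′ UTR in Hoxc6 and Hoxd9 lay in coding sequence of GENCODE. The same held for 3 of the 9 rows called 3′ UTR, in Hoxb7 and Hoxd9. The other 6 had their centre in a 3′ UTR of GENCODE.

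A further 14 rows lay between the outermost Hox genes of a cluster without naming any, and 7 of them had their centre on a Hox exon. A coding peak of Hoxc10, a posterior gene, scored 6.15 in LPS-up and was assigned to Mir196a-2, a microRNA gene that targets Hox transcripts. A different Hoxc10 peak, in the 3′ UTR, scored 5.70 in Mel-up. Hoxc10 thus had peaks up in both comparisons, at different places. The 3′ UTR peak of Hoxa7, assigned to the noncoding gene Mira, scored 2.53 in LPS-up and 4.45 in Mel-down. Coding sequence of Hoxa3 scored 2.66 and the 3′ UTR of Hoxd3 scored 1.58, both in LPS-up. The 5′ UTR of Hoxd8 scored 2.33 in Mel-up. Among these 14 rows were also noncoding transcripts of the clusters. Hotair, a long noncoding RNA of the Hoxc cluster, scored 5.21 in LPS-up and 4.03 in Mel-down. Hoxaas2 scored 3.27 in LPS-up. Peaks assigned to Gm11539 of the Hoxb cluster scored 1.69 in LPS-up and 3.83 in Mel-down, with centres just outside that gene and on no GENCODE exon. Another peak, with its centre on an exon of Gm11539, scored 1.22 in Mel-up.

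All 27 Hox rows on exons held at least 1 DRACH match, from 1 to 12 per row. This is not particular to Hox peaks, since 97.6% of 200-base windows of protein-coding transcripts held one. GGAC, the core form, was found in 22 of 27 rows, beside 53.1% of the windows, although the rows varied in length. DRACH density was 24.7 per 1000 bases in the peaks and 17.0 in the transcript sequence next to them, a ratio of 1.45. Peaks were then moved by 100 bases towards the 5′ end, or only to the transcript start where that was nearer, as in Hoxa5. This gave 24.9 per 1000 bases and a ratio of 1.48. The median width of Hox rows was 200 bases in LPS-up and 168 bases in Mel-down, so moved windows still covered much of the same sequence. The move therefore cannot show whether the density is particular to the listed intervals. Positions listed in both comparisons also entered these densities more than once.

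The 53 partner and regulator genes of the Hox system were listed in both directions of both comparisons. Of these, 26 (49.1%) had a peak in LPS-up and 13 of the 25 on chromosomes 1 to 9 (52.0%) had a peak in LPS-down. In Mel+LPS vs LPS, 26 (49.1%) had a peak up and 21 (39.6%) a peak down. All 4 shares were above those of protein-coding genes given earlier. A gene was counted here also where the annotation named it but the peak was assigned to another gene. As for the Hox genes, the part of gene length in these shares was not tested. The TALE homeodomain cofactors, which include PBX and MEIS proteins, had 7 of 11 in LPS-up, 3 of 7 in LPS-down, 5 of 11 in Mel-up and 9 of 11 in Mel-down. The Trithorax genes, whose products keep Hox genes on, had 8 of 10, 5 of 6, 7 of 10 and 3 of 10 in the same order. The Polycomb genes, whose products keep them off, had 7 of 18, 4 of 8, 8 of 18 and 6 of 18. The retinoic acid receptor and caudal genes, which set the anterior limits of Hox activity, had 2 of 8, 1 of 2, 2 of 8 and 2 of 8. In the same order, the shares of protein-coding genes were 26.8%, 28.8%, 31.6% and 21.8%. At any score, TALE cofactors had their highest share in Mel-down, where Trithorax genes had their lowest. With a score of at least 3, TALE cofactors had 5 of 11 in both LPS-up and Mel-down, so their highest share was not particular to Mel-down. The lists are small, and the differences between them were not tested.

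Among the cofactors, Pbx3 had 1 row in each of 3 lists. It scored 7.99 in LPS-up, 4.38 in Mel-up and 7.98 in Mel-down, and the peaks lay at 3 different places. The LPS-up peak was annotated to an intron and the Mel-up peak to an exon of Pbx3, though both were assigned to another gene. The Mel-down peak was classed as promoter, with its centre outside Pbx3. Pbx4 had a single row, 1.90 in Mel-down. Meis1 had 3 rows in LPS-up (2.09 to 6.19), 2 in Mel-down (4.50 to 5.85) and 1 in Mel-up (2.35). Meis2 had 5 rows in LPS-up (1.12 to 3.17), 1 in LPS-down (5.34), 2 in Mel-up (2.44 to 3.01) and 3 in Mel-down (2.10 to 6.29). The upper values of Meis1 in LPS-up and of Meis2 in Mel-down were the tied values carried by Hoxc8. That Meis1 peak was classed as distal intergenic, with its centre outside Meis1. The Meis2 peak of 6.29 and the Meis1 peak of 4.50 lay in introns and were assigned to other genes. Meis3 scored 1.53 in LPS-up, 3.23 in Mel-up and 1.22 in Mel-down, and only the Mel-down peak had its centre inside Meis3. Apart from Pbx4, each gene given here was thus listed both up and down within Mel+LPS vs LPS, at different places.

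Beside Pbx3, the highest partner scores in the other lists were 12.5 for Eed, a Polycomb subunit, in LPS-down in an intron, and 9.85 for Ezh2, the Polycomb methyltransferase, in Mel-up in its 5′ UTR. In Mel-down it was 18.7 for Rarb, a retinoic acid receptor. The same interval, annotated as an exon of Rarb, scored 4.27 in LPS-up.

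Of 6 uterine genes described as downstream of HOXA10, 2 had a peak in LPS-up, beside 26.8% of protein-coding genes, 4 in Mel-up, beside 31.6%, and 1 in Mel-down, beside 21.8%. With 6 genes, these counts say little against those shares. LPS-down held 0 of the 2 on chromosomes 1 to 9. The prostaglandin receptor gene Ptger3 scored 3.78 and 3.06 in LPS-up, and 2.50 in Mel-up. Ptger4, another prostaglandin receptor gene, scored 1.82 and 1.49 in the same lists. Emx2, a homeobox gene repressed by HOXA10, scored 2.74 in Mel-up and 1.34 in Mel-down at different places. Itgb3, an integrin subunit of the receptive endometrium, scored 1.36 in Mel-up. All these scores were below 4 and the peaks of Ptger3 and Ptger4 lay at different places in the 2 comparisons.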

How the data were processed

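The deposited tables hold differential m6A peaks. The authors trimmed reads, aligned them with STAR 2.5.2a, called peaks on IP and input, compared treatments with MACS2 (given as version 3.4) and annotated peaks with ChIPseeker 1.22.1 on mm10 (GRCm38). The value used is the deposited score of each row, read as the log10 likelihood ratio of MACS2 from the form of the peak names. How replicates were combined, and the strand of the libraries, are not given in the sources used here. The tables hold no column of a single sample.

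From these, rows were selected by Hox symbol, centres were placed in the assigned gene and in exons of GENCODE mouse release 21, and DRACH was counted in transcripts, with Python 3.11.15 and pandas 2.3.3. The steps were tested on simulated rows and sequences. Positions count from 1. Genes with a peak were counted over 21887 protein-coding RefSeq genes.

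Members and gene lists were chosen with earlier results of these data known. Named with values were Hoxa10 and Hoxa11, the 3 highest Hox rows of each table, Hox genes at overlapping positions, rows with a score of at least 5, the highest partner row per table and all Pbx and Meis rows, of which some are not reported here. The remaining Hox rows and the uterine genes were named to account for every member. Alternatives were a minimum score of 3, centres inside the gene, 1 row per gene, moved peaks, GGAC, overlap limits and, chosen after seeing the data, GENCODE exons.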

Additional observations from a re-analysis of the deposited data

How the results depend on the processing

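With a score of at least 3, the Hox genes listed were 5 of 39 in LPS-up, 0 of 39 in Mel-up and 1 of 39 in Mel-down. The partner genes were then 17 of 53 in LPS-up, 7 of 25 in LPS-down, 12 of 53 in Mel-up and 10 of 53 in Mel-down. At this score the shares of protein-coding genes were 14.7% in LPS-up, 14.4% in LPS-down, 13.5% in Mel-up and 12.0% in Mel-down. In Mel-up, 0 Hox genes held the centre by the deposited gene limits and 3 by GENCODE exons, a rule chosen after seeing the data. With 1 row per gene, the median Hox score was 2.57 in LPS-up, 2.99 in Mel-up and 1.49 in Mel-down. With the centre inside the gene it was 2.53 in LPS-up and 1.84 in Mel-down, and no row was left in Mel-up. The 3′ UTR share of Hox rows went from 24.3% to 37.5% with the centre inside the gene and to 14.3% with a score of at least 3. GGAC alone gave 6.71 per 1000 bases and a ratio of 1.24, and moved peaks gave 24.9 and 1.48. The count of 0 Hox genes in LPS-down was the same under each rule tried, and its median could not be computed. The cause of these shifts was not tested.

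No paired analysis was possible because the tables hold 1 score per peak and comparison and no value per replicate, and for the same reason no replicate was left out. The depth behind each peak is unknown.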

Other observations

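To set the Hox genes beside relatives outside the clusters, 65 other homeobox genes were listed, a list chosen after the data were seen. Of these, 20 (30.8%) had a peak in LPS-up, beside 26.8% of protein-coding genes, and 12 of 35 on chromosomes 1 to 9 (34.3%) had a peak in LPS-down, beside 28.8%. The count was again 20 (30.8%) in Mel-up, beside 31.6%, and in Mel-down, beside 21.8%. Apart from Mel-down, these shares were near the background. Irx3, an Iroquois gene, scored 18.4 in LPS-down in its exon 2. Msx1, a gene of the receptive uterus, scored 7.92 in LPS-up and 1.85 in Mel-down in its exon 1. Irx3 and Msx1 were singled out after their values were seen.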
